A study of Mus musculus with 4 samples.

Results

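The genes described here are 9 transcription factors of the collecting duct and nephron, *Gata3*, *Tfcp2l1*, *Elf5*, *Grhl2*, *Emx1*, *Pax2*, *Pax8*, *Hnf4a* and *Pou3f3*. They were chosen by name as factors of known kidney segments, and are 9 of the 31053 genes in the count matrices. Single-nucleus RNA was counted in kidneys of 12-week-old male mice, with 1 library per mouse. Each library came from mid-kidney tissue with much of its cortex removed, which raises the share of medulla. The control group was 2 Cre-negative mice with both *Tfap2a* alleles floxed (Cre-, *Tfap2a fl/fl*). The knockout group was 2 *Hoxb7Cre+;Tfap2a fl/fl* mice, so the groups shared the floxed alleles and differed in the Cre transgene. The *Hoxb7* promoter drives Cre in the collecting duct, which descends from the ureteric bud. The study also names epithelium of the lower urinary tract as a site of this Cre. It is not driven in the nephron lineage, which forms the segments from podocyte to distal tubule.

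The kidney tubule arises from these lineages, and each segment keeps a set of transcription factors into adult life. *Pax2* and *Pax8* act in both lineages from the start of kidney development, *Gata3* is needed in the ureteric bud, and *Hnf4a* and *Pou3f3* are needed for the proximal tubule and for the loop of Henle. In the adult collecting duct, *Tfcp2l1* and *Elf5* are known from intercalated and principal cells, and *Grhl2* acts in the epithelial barrier.

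The control libraries held 42138345 and 24998797 UMIs and the knockout libraries 44964099 and 22179410. After filtering, 7738 and 5430 control nuclei and 7998 and 6177 knockout nuclei were kept. Replicate 1 of each group had the higher median mitochondrial share, 1.66% against 0.671% in the control mice and 1.05% against 0.417% in the knockout mice. Pairs of libraries shared 7 to 18 nucleus barcodes. Clusters were named from marker genes, none of them a member, so each class is CD-PC-like, TAL-like and so on, with the suffix left out here. Of the 12 classes, 3 belong to the collecting duct and pelvis: principal cells (CD-PCs), intercalated cells (CD-ICs) and the deep medullary pelvic epithelium (DMEP). The nephron classes were podocytes, PT (proximal tubule), tL and TAL (the thin and the thick ascending parts of the loop of Henle), DCT (distal convolution) and CNT (connecting segment). Outside the epithelium lay endothelium (EC), interstitium (IntC) and immune cells (ImC). Together they held 25814 nuclei. CD-PCs numbered 325 and 472 nuclei in controls against 256 and 199 in knockouts. PT made up 52.4% and 36.1% of control nuclei, and 55.0% and 54.3% of knockout nuclei, although the cortex had been trimmed.

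The classes carried their defining markers in the control mice. *Aqp2* averaged 6870.0 CPM (counts of the gene scaled to the UMIs of the whole class) in CD-PCs and at most 639.7 in another class. *Slc12a1* averaged 19550.0 CPM in TAL against at most 951 elsewhere, and *Upk1b* 710.2 CPM in DMEP against at most 3.96. *Lrp2*, a marker of PT, averaged 2327 CPM there and reached 719 in IntC. DCT and CNT shared their markers in part. *Slc12a3* averaged 15240 CPM in DCT and 3902 in CNT, and *Calb1* averaged 5466 CPM in CNT and 1632 in DCT. Free RNA, read from barcodes under 100 UMIs, gave an estimated 14.8% and 8.46% of the UMIs of the nuclei in the control libraries and 18.4% and 4.52% in the knockout libraries. These shares are estimates from TAL, the lower of a pair, and estimates from EC were 0.338 and 0.306 of the UMIs in the control libraries and 0.393 and 0.348 in the knockout libraries. Knockout mouse 1 had the highest share on both estimates, and the order of the other mice differed between them.

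*Tfap2a* itself (ENSMUSG00000021359, chr13:40713802-40738238) was counted in CD-PCs as 75 and 180.0 UMIs in controls against 63 and 78 in knockouts. Its level there was 58.0 and 98.2 CPM in controls against 65.9 and 109.6 CPM in knockouts. The groups overlapped, with the second mouse of each group above the first. The log2 fold change was 0.13 (SE 0.35, edgeR unadjusted p 0.708), and it was -0.19 without control mouse 1 and -0.28 without knockout mouse 2. The libraries read the 3′ ends of transcripts, which lie outside the floxed exons, so these counts do not check recombination. In a pair of classes singled out after their values were seen, the groups did not overlap. In CNT the level was 114 and 128 CPM in controls against 72.9 and 70.9 in knockouts, a log2 fold change of -0.75 with an unadjusted p of 0.0314 and an adjusted p of 1.00, and DESeq2 gave an unadjusted p of 0.145. In DMEP, 11 and 11 UMIs were counted in the control mice, at 42.6 and 25.1 CPM, and 0 in both knockout mice, where a count of 0 allows up to 22.2 and 18.6 CPM (3 counts per library). The unadjusted p in DMEP was 0.00175 (adjusted p 0.819), and DESeq2 gave 0.0146.

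The first question was in which cell types of control mice each factor was measured. Values are CPM of the summed nuclei of a class, mean ± SD over the 2 control mice with the value of each mouse beside it. These levels are a description without a test, and neighbours in an order are called overlapping where the ranges of the 2 mice overlap. Each member had its highest level in an epithelial class, and the leading class was the same without called doublets and with the expected free RNA subtracted.

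*Gata3* (ENSMUSG00000015619, chr2:9857078-9887953, GRCm38.p6 as for the other positions) encodes a zinc finger factor needed for growth of the ureteric bud. It stood highest in DMEP at 431 ± 67.3 CPM (383 and 479) and next in CD-PCs at 322 ± 20.0 (308 and 336). CNT followed at 201 ± 23.4, CD-ICs at 126 ± 11 and DCT at 109 ± 0.634. No neighbours among these 5 classes overlapped. The other 7 classes lay at or below 10.4 CPM, under the level of *Gata3* in free RNA, 16.6 and 31.0 CPM in the control libraries. No UMI was counted in podocytes or ImC of either control mouse. CD-PCs held 58.7% of the *Gata3* UMIs of the classes.

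*Tfcp2l1* (ENSMUSG00000026380, chr1:118627923-118685168), a grainyhead-family factor that acts in the patterning of principal and intercalated cells, was highest in CD-ICs at 2462 ± 96.1 CPM (2394 and 2530). CNT was next at 1507 ± 141 CPM (1407 and 1606), with no overlap. DCT at 570.1 ± 8.60 and CD-PCs at 561.3 ± 119 overlapped, since the 2 mice stood at 477 and 646 CPM in CD-PCs. TAL averaged 368 ± 21.0 CPM, and the remaining classes 134 CPM or less, near or below the free RNA level of 124 and 154.

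Inside CD-PCs, *Tfcp2l1* divided the nuclei that carry sodium channel markers from those that carry markers of the inner medulla (IMCD type). The sodium channel type stood at 1823 and 1537 CPM and the IMCD type at 31.9 and 35.8. The low value in the IMCD type was under the free RNA level in both control mice. In CD-ICs the level was close in the clusters with type A markers, 2482 and 2602 CPM, and type B markers, 2333 and 2354 CPM. TAL was also uneven, in clusters singled out after their values were seen. The cluster led by *Slc12a1*, *Sgcz* and *Cacnb4* had 259 and 255 CPM, and the clusters led by *Slc12a1*, *Egf* and *Enox1* and by *Enox1*, *Egf* and *Casr* had 665 and 620.1 and 637 and 572.

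*Elf5* (ENSMUSG00000027186, chr2:103412098-103450989), an ETS-domain factor that marks principal cells, had the narrowest pattern among the collecting duct factors. CD-PCs stood at 425 ± 54.1 CPM (463 and 387) and DMEP at 104 ± 4.55 (101 and 107), with no overlap. Podocytes came next at 21.8 ± 30.8 CPM, but from 5 UMIs of control mouse 1 alone. CD-ICs had 19.0 CPM and CNT 12.0, below the free RNA level of 22.1 and 29.0. CD-PCs held 89.2% of the *Elf5* UMIs of the classes. The subtypes ran opposite to those of *Tfcp2l1*, with 582 and 584 CPM in the IMCD type and 103 and 98.0 in the sodium channel type.

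*Grhl2* (ENSMUSG00000022286, chr15:37232821-37363569), a grainyhead-like factor of epithelial junctions, was spread over the tubule from the thin limb onward. The levels were 208 ± 14.9 CPM in tL, 196 ± 23.8 in CD-ICs, 162 ± 29.7 in DCT, 154 ± 91.7 in DMEP, 146 ± 30.3 in TAL, 124 ± 1.99 in CNT and 123 ± 22.5 in CD-PCs. Each of these 7 classes overlapped its neighbour in the order. The DMEP mean rests on mice that stood apart, 89.1 and 219 CPM. PT was lowest at 1.95 ± 1.12 CPM, far under the 17.1 and 21.0 CPM of free RNA, and podocytes, EC, IntC and ImC were at or under 29.1 CPM, in ImC from 2 UMIs.

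*Emx1* (ENSMUSG00000033726, chr6:85187931-85204463), a homeobox gene best known from the forebrain, was high in a pair of classes. DCT stood at 306 ± 6.96 CPM (301 and 311) and CNT at 288 ± 5.42 (284 and 291), without overlap. PT had 24.6 ± 4.07 CPM from 484 UMIs, about the level of free RNA, 23.1 and 28.7 CPM. ImC had 29.1 CPM from 2 UMIs, and the other classes 13.1 CPM or less. CD-PCs had 3.02 CPM.

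*Pax2* (ENSMUSG00000004231, chr19:44746601-44838269), a paired-box factor of early kidney development, was measured most in tL at 1209 ± 339 CPM (969 and 1449) and then in CD-PCs at 853 ± 144 (751 and 954), without overlap. DMEP stood at 513 ± 29.8 CPM, CD-ICs at 459 ± 279 and TAL at 447 ± 61.2. CD-ICs differed between the control mice, 262 and 656 CPM. In the cluster with type A markers *Pax2* stood at 554 and 892 CPM, and in that with type B markers at 59.3 and 78.2. Type A nuclei numbered 93 and 123 in the control mice and type B nuclei 84 and 32, so control mouse 2 held relatively more type A nuclei, and the intercalated types were compared after their values were seen. Free RNA held 83.0 and 93.3 CPM of *Pax2*, above podocytes and ImC and close to DCT and PT.

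*Pax8* (ENSMUSG00000026976, chr2:24420551-24475599), a paired-box factor related to *Pax2*, led in the same pair of classes. It stood at 805 ± 29.4 CPM in tL, 486 ± 6.48 in CD-PCs and 339 ± 14.2 in PT, with no overlap between these neighbours. DMEP had 312 CPM, IntC 283 ± 121, CD-ICs 235 and CNT 203. DCT at 74.7 CPM, EC at 60.5, podocytes at 49.5 and ImC at 21.2 lay below the free RNA level of 124 and 105 CPM. Over the 12 classes the log2 levels of *Pax2* and *Pax8* had a Pearson correlation of 0.867, the highest of any pair of members. The points are classes of the same 2 mice and share their libraries.

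*Hnf4a* (ENSMUSG00000017950, chr2:163506811-163572907), a nuclear receptor needed for maturation of the proximal tubule, stood at 404 ± 47.1 CPM in PT (370.2 and 437). IntC had 125 ± 3.86 CPM and EC 75.5 ± 0.406, without overlap, and from ImC at 39.7 CPM down to CD-PCs at 16.3 ± 5.34 neighbours overlapped. PT held 93.7% of the *Hnf4a* UMIs of the classes. Free RNA held 209 and 212 CPM, above each class but PT. To see how far the low levels follow RNA of PT, *Hnf4a* was set against the summed UMIs of 9 PT markers, a ratio chosen after the levels were seen. Per 1000 marker UMIs, *Hnf4a* had 33.5 and 40.6 UMIs in PT, 36.0 and 38.2 in IntC, 29.4 and 35.0 in EC and 29.2 and 29.9 in CD-PCs. The ratio stayed near that of PT while the summed level of the markers went from 11040.0 and 10760.0 CPM in PT to 3559 and 3209 in IntC and 688 and 419 in CD-PCs. *Lrp2* among these markers had 2036 and 2617 CPM in PT and 99.0 and 68.2 in CD-PCs, and whether RNA of PT is the source of *Hnf4a* in other classes was not tested. In DCT it was 34.2 and 50.9. CD-ICs (17.2 and 52.6), podocytes (14.2 and 87.0) and ImC (6.62 and 17.9) departed further from it.

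**Figure D1:**
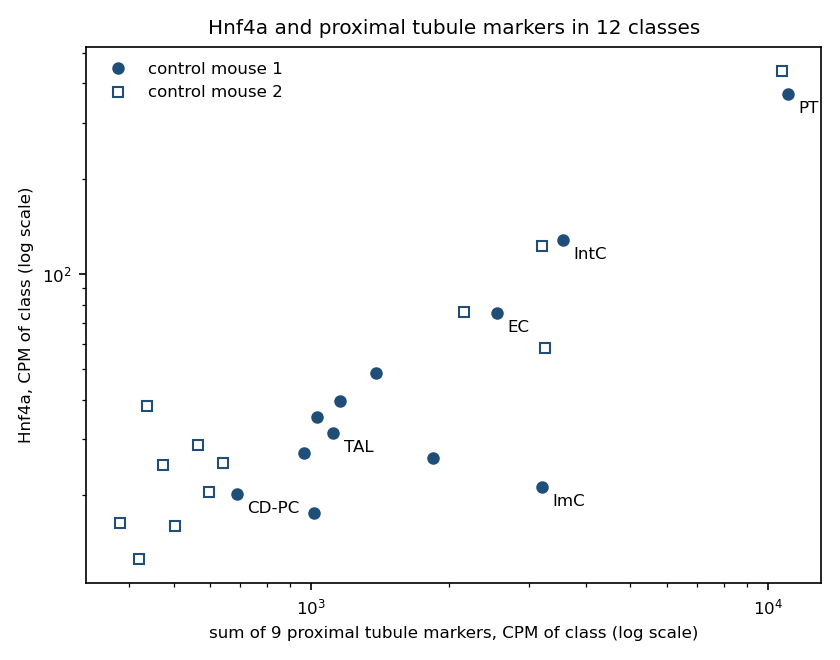
Level of *Hnf4a* (vertical, CPM, log scale) against the summed level of 9 PT markers (horizontal, CPM, log scale) in the 12 classes of the control mice. PT lies at the upper right, and IntC and EC follow it along a line of nearly constant ratio.

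*Pou3f3* (ENSMUSG00000045515, chr1:42695768-42700210), a POU-domain factor needed for the loop of Henle, had 188 ± 20.0 CPM in tL, 165 ± 6.38 in CD-PCs and 151 ± 0.728 in TAL, with no overlap. DCT at 115 ± 32.2 and CNT at 106 ± 7.41 overlapped, and CD-ICs had 85.8 CPM. PT averaged 51.6 CPM, but not evenly among its clusters, which were compared after their values were seen. The PT cluster led by *Cyp7b1*, *Wdr17* and *Snhg11* had 113 and 122 CPM. The cluster led by *Slc5a12*, *Slc13a1* and *Slc16a14* had 6.68 and 10.7 CPM. In free RNA *Pou3f3* stood at 55.3 and 105 CPM, so the first of these clusters was above it in both mice and the other was below.

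**Figure D2:**
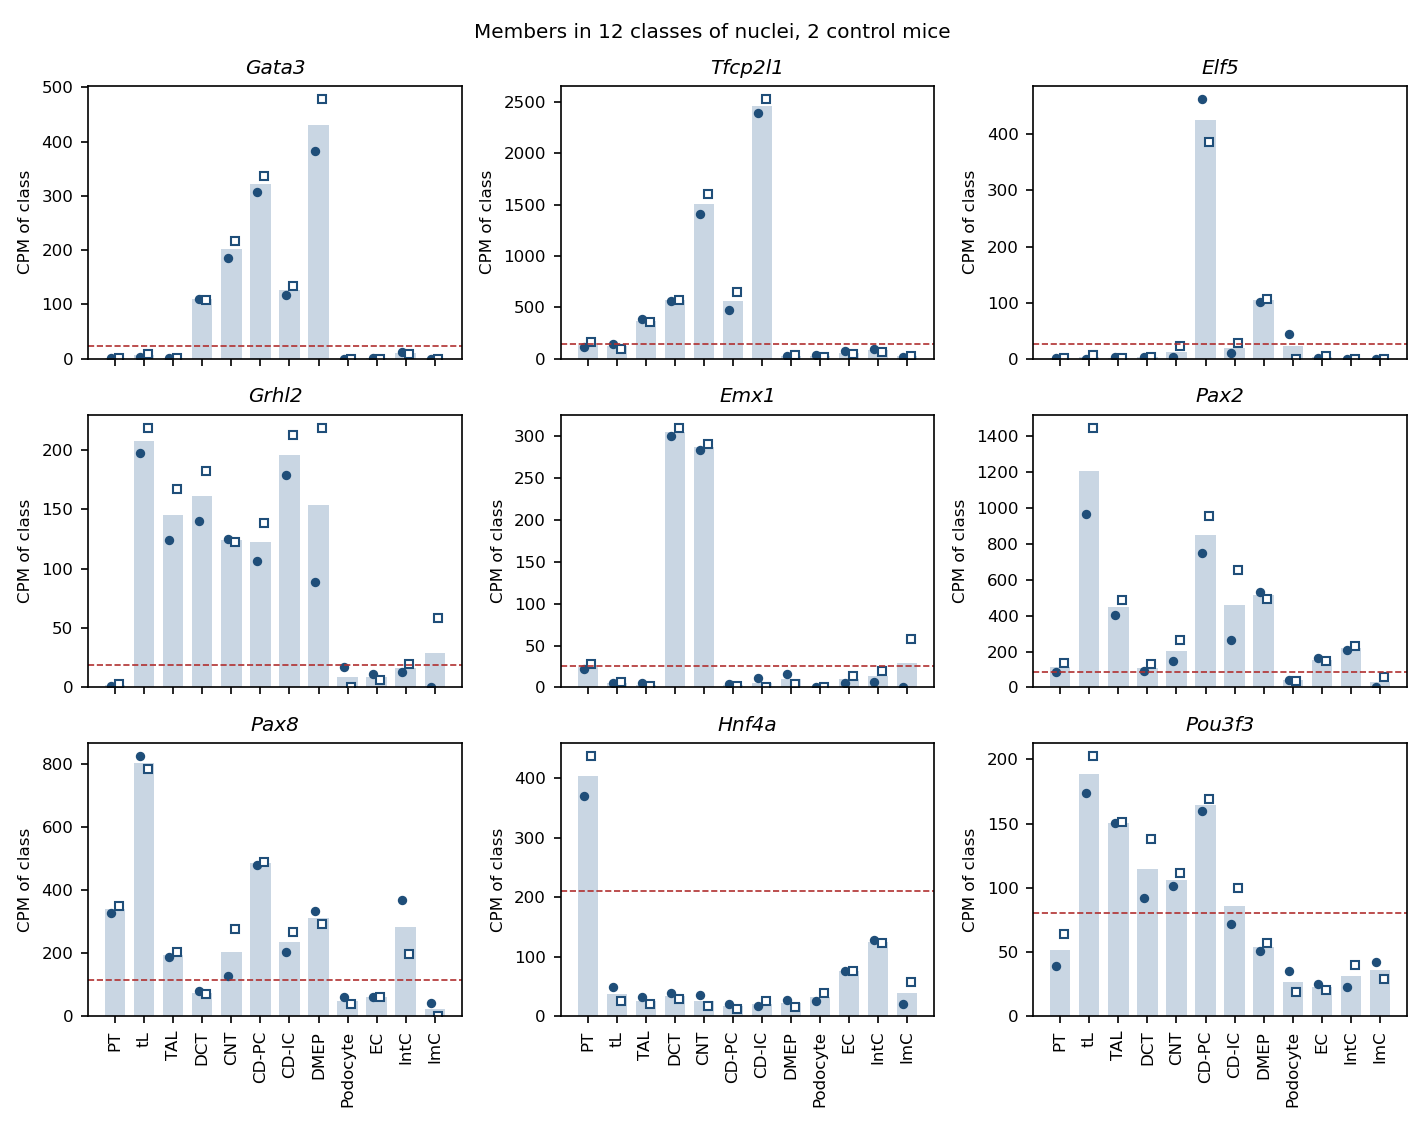
Levels of the 9 members in the 12 classes of the control mice (CPM, linear axes from 0). Bars give the mean of the 2 control mice, filled circles control mouse 1, open squares control mouse 2, and the red dashed line the mean level in free RNA of the control libraries. *Elf5* stands above that line in CD-PC and DMEP, *Emx1* in DCT, CNT and, from 2 UMIs, ImC, and *Hnf4a* in PT.

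Nuclei differ in depth, so shares of nuclei with a UMI were also computed with each nucleus thinned to 1000 UMIs. Of the CD-PCs of the control mice, 322 of 325 and 472 of 472 were deep enough, and of TAL 1277 of 1314 and 1436 of 1445. *Gata3* was detected in 26.7% and 29.1% of thinned CD-PCs and in 0.0675% and 0.0881% of thinned TAL nuclei. Median depth was 3795 and 3706 UMIs in CD-PCs and 1942 and 2007 in TAL. *Elf5* was detected in 44.0% and 44.0% of thinned IMCD-type nuclei, in 8.23% and 8.61% of the sodium channel type and in 0.269% and 0.203% of TAL. Before thinning the IMCD type had 87.6% and 88.4%, so depth set the size of the share but not the contrast with TAL. *Tfcp2l1* was found in 85.9% and 90% of thinned CD-ICs and in 3.24% and 2.94% of the IMCD type. *Emx1* was found in 25.6% and 25.6% of thinned DCT nuclei against 0.483% and 0.263% of CD-PCs. *Hnf4a* was found in 30.4% and 34.9% of thinned PT nuclei and in 1.99% and 1.19% of CD-PCs, where its level is under that of free RNA. *Grhl2* reversed this, at 0.116% and 0.162% of PT and 11.5% and 13.2% of CD-PCs, and it was found in 17.9% and 20.2% of tL.

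For each member, the 3 genes most alike in pattern were found by Pearson correlation of log2(CPM + 10) over the 12 classes. Control mice were averaged, only genes with at least 50 CPM in their leading class were ranked, and no test was made. *Gata3* was closest to *Gm13256* (0.960), *Gm26688* (0.951) and *Nipa2* (0.950), and *Elf5* to *Krt23* (0.954), *Arf3* (0.949) and *Aldh1a3* (0.944). *Tfcp2l1* ranked nearest to *Tmem213* (0.965), *Wdr72* (0.938) and *Atp6v1b1* (0.927). *Grhl2* came closest to *St14* (0.958), *Myo3b* (0.952) and *Lurap1* (0.941). *Emx1* lay nearest to the DCT markers *Wnk1* (0.933) and *Pvalb* (0.931) and to *Tsc22d2* (0.930). *Pax2* was most like *Hoxb9* (0.950), *Vps72* (0.935) and *Hnrnpr* (0.930), and *Pax8* most like *Veph1* (0.934), *Emx2* (0.920) and *Fyb2* (0.913). *Hnf4a* followed *Slc17a3* (0.992), *BC035947* (0.990) and *B3galt5* (0.983). *Pou3f3* had weaker matches in *Cdkl1* (0.912), *Atp1b1* (0.911) and *Nme7* (0.909). Among members, *Grhl2* and *Hnf4a* had the lowest correlation, -0.754. The classes come from the same mice and libraries, and several members are high in few of them, so single classes weigh heavily.

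The second question was whether the levels differed between genotypes. For each mouse the UMIs of a class were added up, and the 2 knockout mice were compared with the 2 control mice by an edgeR quasi-likelihood test over all genes. An exact permutation test of 2 against 2 mice cannot give a p under 0.333, so a call rests on the model. Of 108 pairs of a member and a class, 89 had at least 10 UMIs over the mice, and 0 were called at an adjusted p under 0.05, where 0.00444% of all 135148 gene and class pairs were. The smallest adjusted p was 0.708. At an unadjusted p under 0.05 there were 6 pairs in edgeR, 6.74% of those tested against a background of 3.07%. DESeq2 called 0 pairs and had 5 at that level, but its share over all gene and class pairs is not given, so the 5 have no background. Of the 6, 4 belonged to *Pax2*, and classes of 1 mouse are not independent.

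In CD-PCs, where the Cre is active, edgeR called 0 of the 9 members and 0 of 13368 genes, a background of 0.0%. None of the members had an unadjusted p under 0.05, against 2.39% of genes (319 genes). DESeq2 called 3 genes, none a member, and edgeR called 5 genes without knockout mouse 1 and 34 with no filter on low counts. *Gata3* stood at 308 and 336 CPM in controls against 255 and 381 in knockouts, with the knockout mice on both sides of the control mice. *Tfcp2l1*, whose level differs between the CD-PC subtypes, had 477 and 646 CPM against 761 and 614, with a log2 fold change of 0.29 that was 0.0737 without control mouse 1, 0.11 without knockout mouse 1 and 0.54 without control mouse 2. *Elf5* had 463 and 387 CPM against 349 and 464. In both genes the knockout and control ranges overlapped. *Pou3f3* had 160.0 and 169 CPM against 154 and 181, and *Grhl2* had 107 and 139 CPM against 124 and 179. *Emx1* and *Hnf4a*, which lie under their free RNA levels here, had 3.87 and 2.18 CPM against 11.5 and 2.81, and 20.1 and 12.5 CPM against 30.3 and 8.43. Knockout mouse 1 was the high one for both, and the log2 fold change of *Hnf4a*, 0.33, became -0.94 without it. That of *Emx1*, 1.325 from 22 UMIs in total, became -0.07 without this mouse.

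Only *Pax2* and *Pax8* had groups in CD-PCs that did not overlap. *Pax2* stood at 751 and 954 CPM in controls against 512 and 684 in knockouts. Both knockout mice were below both control mice, with a log2 fold change of -0.52 (SE 0.34, unadjusted p 0.158), which was -0.32 without control mouse 2 and -0.33 without knockout mouse 1. *Pax8* stood at 482 and 491 CPM against 381 and 454, again with the knockout mice below, at -0.23 (SE 0.30, unadjusted p 0.462), which was -0.11 without knockout mouse 1 and -0.37 without knockout mouse 2. These are 2 of 9 members, and groups did not overlap in 27.4% of all genes tested, so the count was no higher than in the rest. The median log2 fold change of the members was 0.02 and that of all genes 0.01. Leaving out 1 mouse turned the direction of *Hnf4a* and *Emx1*, as given, and of 4 further members, but not of *Tfcp2l1*, *Pax2* or *Pax8*. *Gata3* at -0.03 became 0.05 without control mouse 2 and 0.23 without knockout mouse 1, and *Elf5* at -0.07 became 0.05 without control mouse 1 and 0.12 without knockout mouse 1. *Grhl2* at 0.29 was -0.00 without knockout mouse 2, and *Pou3f3* at 0.02 was -0.03 without control mouse 1 and -0.12 without knockout mouse 2.

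The CD-PC subtypes gave 0 called members as well. The sodium channel type held 107 of 325 and 231 of 472 control CD-PCs and 139 of 256 and 88 of 199 knockout CD-PCs, so the mix differed between mice. In the sodium channel type 0 of 9 members were called by edgeR, where 0.0178% of 11234 genes were, and none had an unadjusted p under 0.05, against 3.54%. In the IMCD type 0 of 8 tested members were called, where 0.00827% of 12090.0 genes were, and none had an unadjusted p under 0.05, against 1.75%. DESeq2 called 0 members in either. *Pax2* had 638 and 853 CPM against 491 and 583 in the sodium channel type and 789 and 1024 CPM against 530.2 and 739 in the IMCD type. Both knockout mice were below both control mice in each, at -0.51 and -0.53, which were -0.26 and -0.28 without control mouse 2 and -0.37 and -0.30 without knockout mouse 1. *Tfcp2l1* in the sodium channel type, where most of its UMIs lie, had 1823 and 1537 CPM against 1637 and 1652, which overlapped (-0.0521). In the IMCD type, under its free RNA level, it had 31.9 and 35.8 CPM against 45.6 and 56.2, with both knockout mice above (0.57, unadjusted p 0.126). *Pax8* had 379.6 and 455.1 CPM against 355.8 and 470.4 in the sodium channel type, which overlapped (-0.0519). Its values in the IMCD type were 515.3 and 515.2 CPM against 401 and 445.1, with both knockout mice below (-0.29).

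Since *Hoxb7Cre* does not act in TAL, the effect in CD-PCs was also compared with that in TAL of the same mice. In this test of the difference, edgeR called 0 of 9 members against a background of 0.05% of 16005 genes, and 0 members had an unadjusted p under 0.05 against 4.28%. DESeq2 was not run for the difference. The differences of log2 fold change, CD-PC minus TAL, ran from -0.84 for *Gata3* (SE 0.77) to 1.38 for *Emx1* (SE 1.145). Both rest on few UMIs in TAL, 2 and 3 in controls against 5 and 3 in knockouts for *Gata3*, and 13 and 4 against 11 and 1 for *Emx1*. For *Pax2* the difference was 0.22 (SE 0.29, unadjusted p 0.445), so its lower values in knockout CD-PCs were not shown to differ from those in TAL.

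*Pax2* had lower values in knockout mice in many classes, a pattern singled out after its values were seen. In TAL it stood at 403 and 490 CPM in controls against 238 and 300.4 in knockouts, with no overlap, at a log2 fold change of -0.74 (SE 0.24, unadjusted p 0.0156). The TAL fold change ran from -0.92 to -0.59 with 1 mouse left out. In EC the values were 163 and 148 CPM against 50.3 and 92.1, again without overlap, at -1.14 (SE 0.30, unadjusted p 0.00224, adjusted p 0.708). The EC values of the knockout mice were below the *Pax2* level of their own free RNA, 74.6 and 97.9 CPM. Without knockout mouse 1 the EC fold change was -0.78. In CD-ICs the values were 262 and 656 CPM against 159 and 227, with control mouse 2 far above the rest, at -1.25 (SE 0.45, unadjusted p 0.0213). Without control mouse 2 the CD-IC fold change was -0.48. In DMEP they were 534 and 492 CPM against 251 and 322, both knockout mice below, at -0.78 (SE 0.33, unadjusted p 0.025), and DESeq2 gave an unadjusted p of 0.0781. The DMEP fold change ran from -0.99 to -0.60 with 1 mouse left out.

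Across classes, both knockout mice were below both control mice for *Pax2* in 9 of the 11 tested. One of the 9, podocytes, rests on 5 and 2 UMIs against 1 and 2. Among member and class pairs this held in 22 of 89 pairs, and in 13 of 78 without *Pax2*, beside a background of 15.1% of all gene and class pairs. The exceptions were PT, at 88.4 and 139 CPM against 93.5 and 108, and CNT, at 147 and 264 CPM against 157 and 311. Of 5321 genes tested in the same 11 classes, 4 (0.0752%) were below in as many classes or more, *AC149090.1* in 11, *Npas2* and *Camk1d* in 10 and *Pax2* itself. The median gene was below in 1 class. The count of 9 was also found without called doublets and with free RNA subtracted, alternatives chosen after seeing the data. Classes of a mouse share its library, so 9 classes are not 9 replicates. The first mouse of each group, with the higher mitochondrial share, had the lower *Pax2* level of its group in CD-PCs, CD-ICs, TAL, tL, PT, DCT, CNT and IntC. In DMEP, EC and podocytes this held for the knockout mice, while control mouse 1 stood above control mouse 2. In nuclei under 1% mitochondrial UMIs the log2 fold change was -0.51 in EC, where it was -1.14 before, and -0.93 in TAL, -0.93 in DMEP, -1.22 in CD-ICs and -0.61 in CD-PCs. In tL the values were 969 and 1449 CPM against 632 and 923, and in IntC 211 and 229.5 against 146 and 178.

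**Figure D3:**
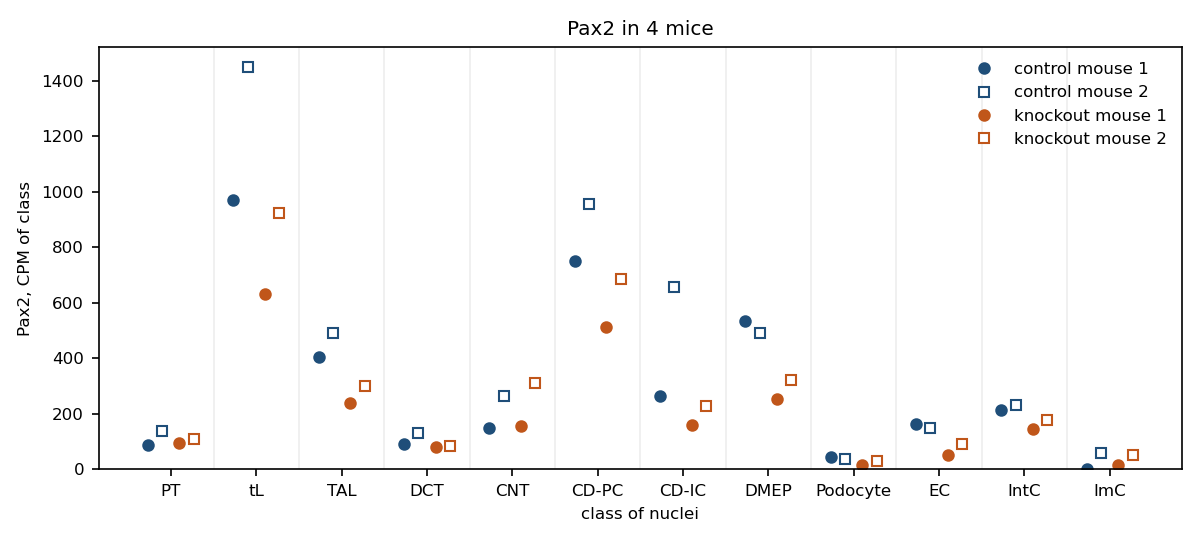
*Pax2* level (CPM) in each of the 4 mice over the 12 classes. Both knockout mice lie below both control mice in 9 of the 11 classes tested, CD-PC, TAL and tL among them, but not in PT or CNT. ImC had too few UMIs for the test.

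Some of these classes join clusters with different levels of *Pax2*, so the values were also read per cluster, untested. Both knockout mice were below both control mice in 6 of 11 clusters of tL, TAL, CD-PCs, CD-ICs and EC. These classes were taken because *Pax2* was lower there, and clusters of the other classes were not read. No share over all genes was computed per cluster, so the 6 have no background. The CD-PC clusters also hold the damaged and mixed nuclei that the class leaves out. In the type A cluster of CD-ICs *Pax2* had 554 and 892 CPM in controls against 324 and 307 in knockouts, without overlap. In type B it had 59.3 and 78.2 CPM against 71.3 and 123, which overlapped. The EC cluster led by *Meis2*, *Flt1* and *Ldb2* had 57.7 and 109 CPM against 23.8 and 39.1, with the knockout mice lower. The EC cluster led by *Emcn*, *Ly6c1* and *Meis2* had 466 and 251.0 CPM against 252 and 356, which overlapped, and it gave 121 and 88 nuclei in the control mice but 40 and 43 in the knockout mice. The part of this difference in nuclei in the EC result was not tested. In TAL the cluster led by *Slc12a1*, *Sgcz* and *Cacnb4* had 509.9 and 578 CPM against 294 and 339.8, below in both knockout mice, while the clusters led by *Slc12a1*, *Egf* and *Enox1* (166 and 268 against 165 and 207) and by *Enox1*, *Egf* and *Casr* (176 and 261 against 133 and 207) overlapped.

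The remaining pairs at an unadjusted p under 0.05 were *Pax8* in DMEP and *Gata3* in ImC. *Pax8* in DMEP was counted as 86 and 128 UMIs in controls against 15 and 26 in knockouts, or 333 and 292 CPM against 111 and 161. Both knockout mice were below, at a log2 fold change of -1.13 (SE 0.35, unadjusted p 0.00399), from 31 and 31 nuclei in the knockout mice and 66 and 93 in the control mice. This fold change ran from -1.45 to -0.88 with 1 mouse left out. The DMEP values of the knockout mice were below the *Pax8* level of their own free RNA, 153.2 and 164.8 CPM. *Gata3* in ImC was counted as 0 UMIs in both control mice, which allows up to 63.5 and 87.2 CPM (3 counts per library). The knockout mice had 6 and 4 UMIs, at 90.5 and 203 CPM, from 5 of 46 nuclei and 1 of 12 nuclei. All 4 UMIs of knockout mouse 2 came from a single nucleus, so the difference rests on few nuclei (unadjusted p 0.00849).

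Other transcription factors were read beside the members. Of 26 listed relatives of the members from the same gene families, edgeR called 0 in 112 class tests, with 2 higher and 3 lower at an unadjusted p under 0.05, and DESeq2 called 0 and had 0 at that level. Of 35 other kidney transcription factors, edgeR called 0 in 279 class tests, with 8 higher and 12 lower at an unadjusted p under 0.05, and DESeq2 called 0 and had 6 at that level. The background of all gene and class pairs at an unadjusted p under 0.05 in edgeR was 3.07%, and that of DESeq2 is not given. In CD-PCs the median log2 fold change was 0.09 over 11 relatives and 0.17 over 28 other factors, beside 0.01 over all genes. *Gata2*, a zinc finger factor related to *Gata3*, had 105 and 122 CPM in CD-PCs of the control mice and 127 and 135 in those of the knockout mice (0.19), and *Emx2*, the paralog of *Emx1*, had 102 and 135 against 119 and 159 (0.21). *Tfap2b*, a relative of *Tfap2a*, had 44.1 and 47.4 CPM against 91.0 and 64.7, both knockout mice above, at 0.77 (unadjusted p 0.0234, DESeq2 0.0883), which was 0.48 without knockout mouse 1. Its level differs between the CD-PC subtypes too, and it had 149 and 109 CPM against 195 and 177 in the sodium channel type (0.54, unadjusted p 0.0972) and 9.26 and 5.51 against 5.70 and 4.32 in the IMCD type (-0.53). *Lhx1*, a LIM homeobox gene of early kidney development, had 7.73 and 14.2 CPM against 31.4 and 25.3 from 10 and 26 UMIs against 30 and 18, at 1.33 (unadjusted p 0.0103, DESeq2 0.047). *Gata2*, *Emx2*, *Tfap2b* and *Lhx1* were named because they had the smallest p of their lists in CD-PCs. The edgeR adjusted p of each was 0.9996.

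AP-2 factors, the family of *Tfap2a*, bind the motif GCCNNNGGC, so the promoters of the members were searched for it. Promoter sequence from RefSeq (GRCm38.p6) was found for 8 of the 9 members, in 12 windows of 250 bases upstream of a listed start. The motif is palindromic, so a scan of 1 strand reads both. It occurred in 3 of the 12 windows, one each of *Gata3*, *Tfcp2l1* and *Pax2*, and 13.7% of 32851 promoter windows hold it. These 3 windows had a GC content of 70.0%, 65.2% and 60.8%, above the 52.4% median of all windows, and the motif is itself rich in G and C. Member windows without the motif ran from 51.2% in *Hnf4a* to 75.6% in *Emx1*, so the GC contents overlapped. Whether GC content accounts for the matches was not tested. *Gata3* carried 3 matches (chr2:9878601-9878850, minus strand), *Tfcp2l1* 1 (chr1:118627695-118627944, plus strand) and *Pax2* 1 (chr19:44755502-44755751, plus strand). The *Gata3* and *Pax2* windows lie inside the RefSeq span of the gene, before one of its listed starts. The windows are shown since these are the members whose promoters carry the motif, with its letters in capitals, 5′ to 3′. A match is a description of the sequence and does not show binding, and where no match was found, these letters are not in the window read. No window was read for *Grhl2*.
Gata3: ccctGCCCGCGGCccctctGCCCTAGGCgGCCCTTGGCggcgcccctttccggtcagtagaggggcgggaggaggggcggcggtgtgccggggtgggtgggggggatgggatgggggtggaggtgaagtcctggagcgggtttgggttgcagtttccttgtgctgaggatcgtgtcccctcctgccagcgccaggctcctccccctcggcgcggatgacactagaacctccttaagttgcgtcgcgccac
Tfcp2l1: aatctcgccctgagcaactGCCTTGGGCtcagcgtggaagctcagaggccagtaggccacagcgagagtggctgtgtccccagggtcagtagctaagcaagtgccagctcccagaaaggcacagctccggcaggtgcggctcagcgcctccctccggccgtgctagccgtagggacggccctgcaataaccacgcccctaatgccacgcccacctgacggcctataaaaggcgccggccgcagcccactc
Pax2: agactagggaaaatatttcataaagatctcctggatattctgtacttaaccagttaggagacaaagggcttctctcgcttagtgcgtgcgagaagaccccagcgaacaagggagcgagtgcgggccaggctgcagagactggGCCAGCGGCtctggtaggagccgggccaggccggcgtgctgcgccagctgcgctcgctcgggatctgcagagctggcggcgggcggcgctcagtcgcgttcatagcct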

How the data were processed

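The deposited files hold the authors' unfiltered UMI count matrices (Cell Ranger 3.0.2, mouse genome mm10). Whether introns were counted, and how strands were used, is not stated. RefSeq lists other genes that overlap *Gata3*, *Hnf4a* (*Hnf4aos*), *Grhl2* and *Pax2* and have counts of their own in these matrices.

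The 10000 deepest barcodes of a library were taken, and a nucleus was kept if it had more than 500 genes, fewer than 4000 and a mitochondrial share below 5%. The libraries were joined by canonical correlation in Seurat 5.3.0 (R 4.3.3) on 2000 variable genes without the 9 members, with 30 dimensions and resolution 0.5. The 25 clusters were named from marker lists. The naming rule (a tie-break by markers, and a cluster set aside as mixed at 85% of the markers of a class that does not adjoin) and the limits for damaged nuclei were revised after clusters were seen. CD-PCs were limited to 4 subclusters, 1252 of 1465 nuclei, after subclusters were seen and before any test of genotype. Damaged and mixed clusters, 1529 nuclei with those subclusters, were in no class.

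Sums of UMIs for each mouse in each class were tested in edgeR 4.0.16 (TMM, quasi-likelihood F test, two-sided) where a gene reached 10 UMIs in total, with Benjamini-Hochberg adjustment over all genes of the class and calls at an adjusted p under 0.05. DESeq2 1.42.0 was the other test. The difference between CD-PC and TAL was a class by genotype term with a term for mouse. Unadjusted and adjusted p values in the text are from edgeR unless DESeq2 is named. Free RNA is the sum of barcodes under 100 UMIs, and its share is the lower of estimates from EC and TAL. Doublets were called against 2 simulated doublets per nucleus at a rate of 0.8% per 1000 nuclei. Limits of a count of 0 are 3 counts and cover counting error. Other steps ran in python 3.11.15.

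Named genes are the 9 members, *Tfap2a*, any listed gene called in a class or else the 2 with the smallest p in CD-PC per list (26 relatives and 35 other kidney factors), and the 3 genes most like each member. The members and lists were chosen with earlier results of these data known. Besides choices named as such in the text, the ratio to PT markers, the limits of counts of 0 and the shares of UMIs per class were chosen after values were seen.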

Additional observations from a re-analysis of the deposited data

Results flagged for a closer look

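*Elf5* had knockout values on opposite sides of the control values in the subtypes of CD-PCs. In the sodium channel type it stood at 103 and 98.0 CPM in controls against 60.5 and 96.5 in knockouts, both below, with a log2 fold change of -0.42 (SE 0.34). In the IMCD type it stood at 582 and 584 CPM in controls against 585 and 661 in knockouts, both above, with a log2 fold change of 0.0857. Leaving out 1 mouse gave -0.74 to -0.0595 in the sodium channel type and 0.00675 to 0.17 in the IMCD type. The difference between the subtypes was not tested, and in each of them at least 1 knockout mouse lay close to the control mice.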

How the results depend on the processing

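Member and class pairs called were 0 by edgeR and 0 under DESeq2, library size scaling, other filters, resolution 0.8, members kept in clustering, nuclei under 1% mitochondrial UMIs, free RNA subtracted, doublets left out, a threshold of 0.1, all CD-PC nuclei (chosen after seeing the data) and each mouse left out. With the replicate number as a block it was 2, *Pax2* in CD-ICs (-1.15, adjusted p 0.000424) and in EC (-1.18, adjusted p 0.00676). Outside the block the smallest adjusted p of a member was 0.0508, for *Pax2* in EC with no filter, and over all alternatives it ran from 0.000424 to 1.00. The labels give replicate numbers without saying that mice were paired, and correlations of deviations between mice of 1 number were 0.0746 to 0.328 in this pairing, from 2 pairs. Genes called in CD-PCs were 0, and 3 by DESeq2, 34 with no filter, 106 with the replicate block, 1 under 1% mitochondrial UMIs and 0 to 5 with a mouse left out, where 5 came without knockout mouse 1. The cause was not tested.

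Of 132 log2 fold changes of members in CD-PCs under alternatives, 14 changed sign, and the smallest adjusted p of a member there was 0.438. With a mouse left out, *Gata3* ran from -0.35 to 0.23 (0.05 without control mouse 2, 0.23 without knockout mouse 1), *Elf5* from -0.30 to 0.12 (0.05 without control mouse 1, 0.12 without knockout mouse 1) and *Grhl2* from -0.00247 (without knockout mouse 2) to 0.52. *Tfcp2l1* ran from 0.0737 (without control mouse 1) to 0.54 (without control mouse 2). *Emx1* ran from -0.0705 (without knockout mouse 1) to 1.92, *Hnf4a* from -0.94 (without knockout mouse 1) to 0.90 and *Pou3f3* from -0.12 (without knockout mouse 2) to 0.13, with -0.0349 without control mouse 1. *Tfap2a* ran from -0.28 (without knockout mouse 2) to 0.59, with -0.19 without control mouse 1. Without doublets *Gata3* was 0.00684 and *Hnf4a* -0.0740, and in CD-PC minus TAL *Tfcp2l1* was 0.00820 and *Hnf4a* -0.12. *Pou3f3* was -0.00930 with no filter, -0.0593 under 1% mitochondrial UMIs and -0.0242 with all CD-PC nuclei. The cause was not tested.

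The other 337 single values kept their direction and side of the threshold, or their level within the spread of the mice, and 5 leading levels (*Tfcp2l1*, *Grhl2*, *Emx1* and *Pax8*) moved by more than that spread without doublets or with free RNA subtracted. Resolution 0.8, members kept in clustering and all CD-PC nuclei gave no value for the subtypes. *Gata3* in ImC had none without either knockout mouse or under 1% mitochondrial UMIs, and neither it nor *Emx1* in CD-PCs had one with the filterByExpr filter. *Emx1* and *Hnf4a* in CD-PCs had none with free RNA subtracted. CD-PC minus TAL was refitted only with library size scaling and without doublets, and *Tfap2a* in DMEP only by DESeq2. Where 1 mouse was left in a group, edgeR assumes that it varies like the other group. In classes not named here, fold changes under the alternatives entered the count of pairs called and are not given one by one. At this depth 19 of 108 member and class pairs had under 10 UMIs and were not tested.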
